A study of Mus musculus with 84 samples.

Results

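The genes of the mouse major histocompatibility complex (MHC, named H2 in the mouse) were followed in 84 outbred animals, in dissected tissue of the central amygdala (CeA). The members are the genes whose symbol starts with H2- and that had at least 10 counts in at least 8 of the 84 libraries. Of 43 such symbols in the table, 27 met this rule and 16 did not. The same count rule kept 17775 of the 43629 genes of the table. By role, the members were both classical class I genes, 4 of 7 classical class II genes, all 5 class II peptide loading genes, 6 of 8 Q region genes, 5 of 6 T region genes, 3 of 13 M region genes, and H2-K2 and H2-Ke6. H2-Ke6 carries the prefix but encodes a steroid dehydrogenase (Hsd17b8) and no MHC molecule. The 16 genes under the rule were H2-Pa, H2-Pb, H2-Eb2, H2-Q3, H2-Q5, H2-T3, the 6 H2-M10 genes, H2-M1, H2-M2, H2-M9 and H2-M11.

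All were mice of the HS-CC (heterogeneous stock, Collaborative Cross) population, in which every animal carries its own mixture of the chromosomes of the Collaborative Cross founder strains. There were 43 females and 41 males drawn from the offspring of 48 families with at most 3 animals of a family, and their median age was 15 weeks when testing began. All animals could choose between water and 10% ethanol for 13 weeks after a first exposure to 5%, were housed singly and had ethanol until euthanasia, so no ethanol-naive group exists and drinking is compared along its range. Preference is the volume taken from the ethanol tube over all fluid; its mean over 13 weeks had a lowest, median and highest value of 0.0435, 0.229 and 0.759 in females and 0.0262, 0.153 and 0.713 in males. The CeA, whose neurons are largely inhibitory, was laser-dissected from frozen sections, and each animal gave 1 poly(A) library. Libraries held 24118965 to 42036566 counts with a median of 31573088.5, and the 7 central amygdala genes looked up as a check on the tissue were all kept. Levels are given in CPM, counts per 1000000 counts of the library, and these 7 genes summed to 1104 to 4033 CPM. The summed level of 7 choroid plexus genes ran from 6.1 to 1409.7 CPM with a median of 32.9. The family of each animal is not given in the sources used here, so animals were not fully independent, and p-values measure the spread between these animals.

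Classical class I molecules show peptides from inside a cell to CD8 T cells. Partners of their pathway are the light chain beta-2 microglobulin (B2m), the peptide transporter Tap and the transactivator Nlrc5. Class II molecules, pairs of an alpha and a beta chain, show peptides from engulfed material to CD4 T cells. They travel with the invariant chain Cd74, are loaded by DM, which H2-O inhibits, and are switched on by the transactivator Ciita. In the healthy brain class II is known from macrophages and dendritic cells at the borders more than from neurons or resting microglia, and the genes are among the most variable between mouse strains.

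All members lie on chromosome 17 of GRCm38, between 33974831 and 37483552, the stretch of 3.51 Mb spanned by the H2- symbols. RefSeq promoter windows (GRCm38.p6, 250 bases upstream of the start site) existed for 19 of the 27 members. They were searched on both strands for the X box core (CCTAG, any base, AAC, any base, GATG) and the Y box CTGATTGG, which are elements of MHC promoters, for the cAMP response element TGACGTCA and for the interferon-stimulated element (GAAA, any 2 bases, GAAA). The 5 windows below are shown because they belong to the 3 class II genes and the 2 neighbouring T region genes that the results turn on; capitals mark the matches, which do not overlap one another, and a match on the other strand appears as its reverse complement. The windows are H2-Aa at chr17:34287824-34288073 (- strand), H2-Eb1 at chr17:34305617-34305866 (+ strand), H2-DMb1 at chr17:34152941-34153190 (+ strand), H2-T23 at chr17:36032702-36032951 (- strand) and H2-T22 at chr17:36042743-36042992 (- strand).
H2-Aa: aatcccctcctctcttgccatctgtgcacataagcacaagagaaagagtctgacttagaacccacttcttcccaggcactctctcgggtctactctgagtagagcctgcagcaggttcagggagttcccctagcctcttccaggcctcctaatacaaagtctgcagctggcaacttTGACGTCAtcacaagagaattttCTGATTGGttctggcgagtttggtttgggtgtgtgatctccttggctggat
H2-Eb1: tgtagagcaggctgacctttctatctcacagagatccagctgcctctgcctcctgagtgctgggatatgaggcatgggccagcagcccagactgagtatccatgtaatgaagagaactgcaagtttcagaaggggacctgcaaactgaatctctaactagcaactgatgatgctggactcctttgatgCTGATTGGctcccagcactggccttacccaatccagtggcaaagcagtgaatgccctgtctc
H2-DMb1: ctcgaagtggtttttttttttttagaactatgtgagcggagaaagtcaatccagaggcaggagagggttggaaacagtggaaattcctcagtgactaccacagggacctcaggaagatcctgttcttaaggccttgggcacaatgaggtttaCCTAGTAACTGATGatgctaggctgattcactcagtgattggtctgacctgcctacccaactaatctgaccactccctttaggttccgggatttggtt
H2-T23: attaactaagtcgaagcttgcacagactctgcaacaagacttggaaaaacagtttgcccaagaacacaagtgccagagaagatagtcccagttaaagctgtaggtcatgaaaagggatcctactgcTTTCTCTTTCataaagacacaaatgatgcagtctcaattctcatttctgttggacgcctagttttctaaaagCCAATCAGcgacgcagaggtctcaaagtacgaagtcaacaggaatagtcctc
H2-T22: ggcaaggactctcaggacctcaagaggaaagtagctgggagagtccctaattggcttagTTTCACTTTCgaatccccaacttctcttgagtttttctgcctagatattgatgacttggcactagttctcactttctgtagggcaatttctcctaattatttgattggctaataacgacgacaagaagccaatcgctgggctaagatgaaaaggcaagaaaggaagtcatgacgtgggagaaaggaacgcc
The Y box was in the windows of 7 members, H2-Aa, H2-Eb1, H2-Oa, H2-D1, H2-Q6, H2-Q7 and H2-T23, and in 3.829% of the 32851 RefSeq windows of the same length. The X box core stood in the window of H2-DMb1 and in 0.006% of all windows, the cAMP response element in H2-Aa and 1.546%, and the interferon-stimulated element in H2-T22 and H2-T23 and 2.977%. A member was counted when any of its windows matched, while the percentages are shares of single windows, so the units differ. A match is a description of these letters in the reference strain's sequence and not a bound site, and the animals' own haplotypes were not read.

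The classical class I chains were the most abundant members. H2-D1, the D chain, had a lowest, median and highest level of 7.42, 36.7 and 87.4 CPM, and H2-K1, the K chain, of 4.92, 20.7 and 47.5 CPM. Per kilobase of exon length the medians were 14.2 CPM for H2-D1 and 7.92 CPM for H2-K1. H2-DMa, the alpha chain of the peptide loader DM, lay between them at 11.3 CPM per kilobase, and no other member passed 2.08. The classical class II chains were scarce and spread widely. Their lowest, median and highest levels were 0.381, 3.17 and 17.5 CPM for H2-Aa, 0.137, 2.31 and 11.2 CPM for H2-Ab1, and 0.129, 1.79 and 9.97 CPM for H2-Eb1. The ranges of females and males overlapped for each of these genes, as the plot of levels by library shows. The loading genes and the non-classical genes were mostly scarcer. H2-Q4 ran from 1.07 to 11.6 CPM with a median of 3.50, H2-Q6 from 0.0345 to 2.60 with 0.554, and H2-Q7 from 0.0303 to 1.62 with 0.439. H2-Q1 ran from 0 to 3.58 CPM with a median of 0.725 and H2-Q2 from 0.0307 to 8.23 with 1.36. H2-M3 had a median of 2.94 CPM, H2-T24 of 1.25, H2-M5 of 0.534 and H2-Ke6 of 0.109.

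**Figure D1:**
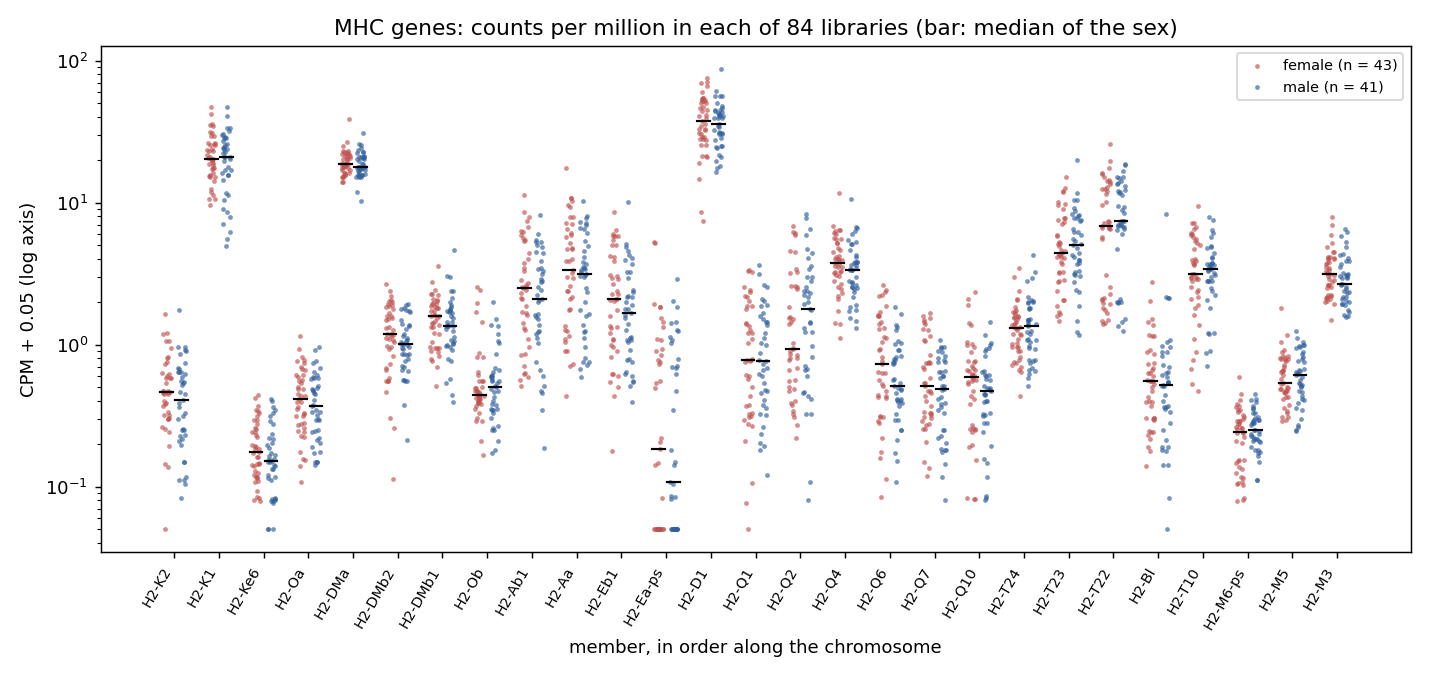
CPM plus 0.05 (log axis) of the 27 members in each library, females in red (n = 43) and males in blue (n = 41), with a bar at the median of each sex. H2-D1, H2-K1 and H2-DMa stand highest, and H2-Ea-ps runs from 0 to 5.195 CPM.

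The members differed in how much they varied from animal to animal. On the log2 CPM scale the SD over the 84 libraries was 0.287 for H2-DMa and 0.538 for H2-M3, but 1.19 to 1.24 for H2-Eb1, H2-Aa and H2-Ab1, 1.23 for H2-T22, 1.45 for H2-Q2 and 2.03 for H2-Ea-ps. The median SD over all 17775 genes was 0.346. Of the 27 members, 26 lay above that median and 13 above its 90th percentile, which falls at 0.936. Scarce genes have larger SDs from counting alone, and the members were not compared with genes of like abundance. The level between the 10th and 90th percentile of animals spanned 10.7-fold for H2-Ab1, 10.1-fold for H2-Aa, 9.28-fold for H2-T22, 2.69-fold for H2-D1 and 1.53-fold for H2-DMa.

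A mixture model sorted each gene's log2 CPM into 1 to 4 components, and a gene was counted as having several levels when at least 2 components held 8 or more libraries each with centres at least 1 log2 unit apart. This held for 7 of the 27 members, against 8.34% of all genes kept. They were H2-T22, H2-T10, H2-Ea-ps, H2-K1, H2-Ob, H2-Aa and H2-M6-ps. An on/off gene was one with at most 3 counts in 8 or more libraries and at least 30 counts in 8 or more others. H2-Ea-ps, H2-K2 and H2-Q10 were of this kind, 3 of 27 members against 2.48% of all genes. H2-K2 and H2-Q10 formed a single broad component each, from 0 to 1.70 CPM and from 0.0307 to 2.31 CPM, and neither was on/off with other thresholds. The genes most like H2-K2 were H2-K1 (rho = 0.77), H2-DMb1 (rho = 0.62) and Gm18733 (rho = -0.57), and among those most like H2-Q10 were AI467606 (rho = 0.64) and Vwa5b1 (rho = 0.61). The components are the model's, and in most of these genes neighbouring components nearly touch.

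In the T region 2 members, H2-T22 and H2-T10, formed several levels. H2-T22 and H2-T10 are non-classical class I molecules recognised by a subset of gamma-delta T cells, and H2-T23 (Qa-1) presents a class I signal peptide to natural killer receptors. H2-T22 formed 3 levels. It lay at 1.19 to 3.06 CPM in 24 libraries, at 4.69 to 9.64 CPM in 29 and at 10.1 to 25.96 CPM in 31. The gap between the lowest and middle level was 1.53-fold and empty of libraries, while the middle and upper level were separated by 1.05-fold. Every level held both sexes, with 15, 12 and 16 females, and every run of sample-sheet numbers, with 3 to 13 libraries in each.

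Of the other T region members, H2-T23 and H2-T10 followed the order of the 3 levels of H2-T22 in their medians, and H2-T24 and H2-Bl did not. H2-T23, whose start coordinate is 7.4 kb from that of H2-T22, had a median of 2.35, 4.51 and 8.12 CPM in the lower, middle and upper level of H2-T22. H2-T10, 78.7 kb away, ran the other way, with medians of 5.79, 2.96 and 1.77 CPM. H2-T24, 31.4 kb away, had 0.722, 1.45 and 1.33 CPM, and H2-Bl, 43.0 kb away, 0.247, 0.615 and 0.508 CPM. H2-T10 itself formed 2 levels, 0.418 to 1.33 CPM in 13 libraries and 1.56 to 9.35 CPM in 71. All 13 libraries with low H2-T10 fell in the upper level of H2-T22, and the other 18 libraries of that level held 1.56 to 4.91 CPM of H2-T10. In no library were both genes in their lower level.

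Within the levels of H2-T22 the relation had another form, and the difference between levels was not tested. The pairs of H2-T22 with H2-T10 and with H2-T23 were added to the planned list of pairs, so their p-values are not those of planned tests. In the lower level (n = 24) H2-T22 and H2-T10 rose together, with r = 0.868 and rho = 0.832 (two-sided permutation test, adjusted p = 4.86e-05 over the 34 relations computed, for r). In the middle level (n = 29) r was 0.587 and rho 0.442 (permutation, adjusted p = 0.00278 for r), and r fell to 0.391 without the 2 libraries farthest from the median of H2-T22. In the upper level (n = 31) r was -0.355 and rho -0.454 (permutation, adjusted p = 0.0872 for r and 0.0235 for rho). These values pool both levels of H2-T10, with 13 libraries at 0.418 to 1.33 CPM and 18 at 1.56 to 4.91 CPM. They therefore do not give the relation inside 1 level of H2-T10. H2-T22 and H2-T23 rose together within all 3 levels, with r = 0.768, 0.552 and 0.475 and rho = 0.797, 0.264 and 0.471 (permutation, adjusted p = 8.5e-05, 0.0051 and 0.0179 for r). In the middle level r was 0.324 without the 2 farthest libraries, so that relation rests on them. H2-T22 and H2-T10 share 31.25% and 31.7% of their transcripts' 50-base words with each other in the GENCODE M21 annotation, so their reads could be split between them in counting, and the part of this in the relation was not tested.

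**Figure D2:**
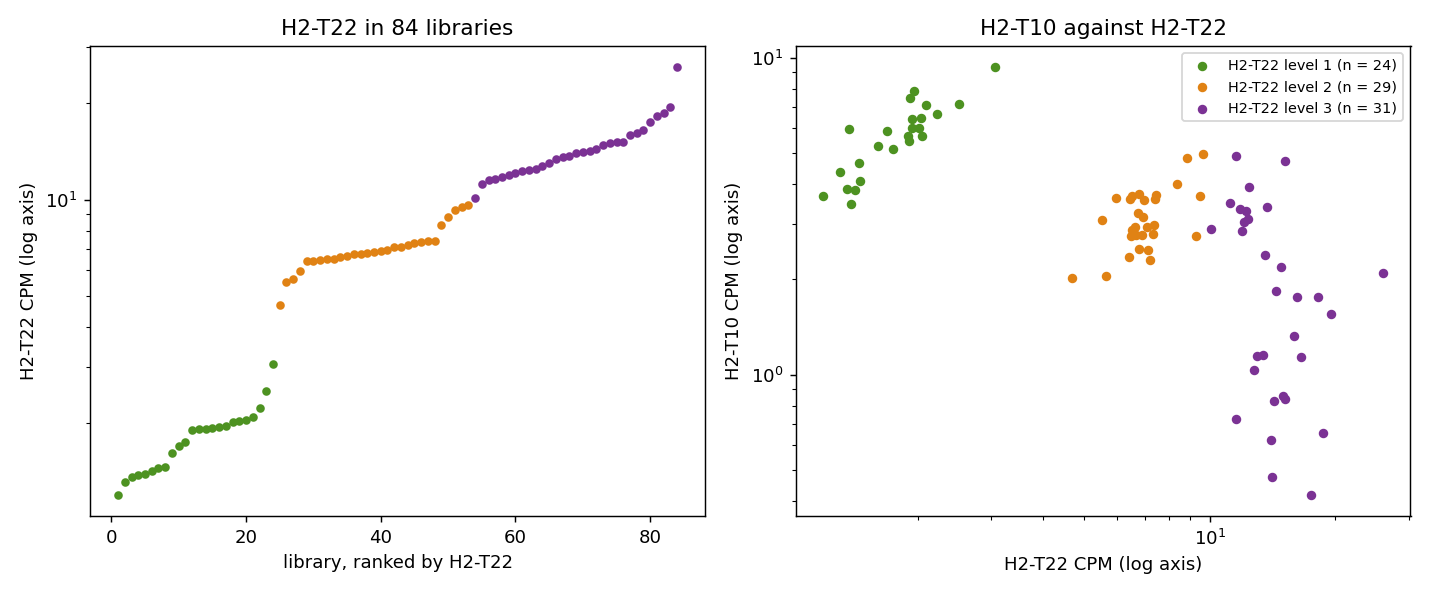
Left, H2-T22 in CPM (log axis) over the 84 libraries ranked by it; right, H2-T10 against H2-T22, both in CPM on log axes, with each point 1 library and colours for the 3 levels of H2-T22 (n = 24, 29 and 31). The 13 libraries with H2-T10 under 1.33 CPM all lie in the upper level of H2-T22.

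The genes most like H2-T22 over all libraries, by Spearman's rho as a measure of likeness with no test, were H2-T23 (rho = 0.88), BC023719 (rho = -0.82) and Gm6034 (rho = -0.72). For H2-T10 they were BC023719 (rho = 0.81), Gm6034 (rho = 0.72) and H2-T22 (rho = -0.71). BC023719 is a transcribed locus at chr17:36111426-36117121. It had 16.7 to 32.6 CPM where H2-T22 was low and 8.28 to 19.1 CPM where it was in the middle. In the 13 libraries with low H2-T10 it had at most 7 counts, and at most 3 in 11 of them. The other 18 libraries of the upper level held from 0.0297 to 18.6 CPM of it. BC023719 and H2-T10 lie on opposite strands and overlap by 1246 bases, and the strand setting of the counting is not given in the sources used here, so reads of both may have been counted together there. Gm6034 starts 213 bases from H2-T22 on the opposite strand, so that the H2-T22 window printed above reaches into it; it was scarcer, with at most 1.03 CPM.

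H2-Ea-ps encodes the alpha chain of the class II E molecule in some strains and is a pseudogene in the reference strain, where a deletion removed its promoter. It had 0 counts in 34 libraries, at most 3 in 44 and at least 10 in 35. A level of 3 counts, taken as the limit of detection, equals 0.0714 to 0.124 CPM in these libraries. The mixture gave 4 components: 40 libraries at 0 to 0.0576 CPM, 9 at 0.0908 to 0.298 CPM with 3 to 9 counts each, 27 at 0.419 to 1.48 CPM and 8 at 1.79 to 5.195 CPM. Females and males were 19 and 21, 5 and 4, 14 and 13, and 5 and 3 in these. In runs 1 to 4 of sheet numbers the highest component held 0, 2, 3 and 3 libraries. With another scaling the model gave 2 levels in place of 4, so the finer steps depend on it. The gap between libraries of at most 9 counts and those of at least 12 was 1.41-fold.

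Libraries without H2-Ea-ps covered much of the range of the other class II chains. In the 40 libraries with at most 2 counts of it H2-Eb1, its partner beta chain, ran from 0.342 to 8.49 CPM with a median of 1.87, and in the 27 libraries of the third component from 0.129 to 5.36 CPM with a median of 1.99. The 9 libraries with 3 to 9 counts had H2-Aa at 0.381 to 1.19 CPM, all in its lower component, H2-Eb1 at 0.381 to 1.30 CPM and H2-Ab1 at 0.294 to 2.48 CPM. The 8 libraries highest in H2-Ea-ps had H2-Aa at 3.85 to 17.5 CPM, all in its upper component, H2-Eb1 at 1.53 to 9.97 CPM, H2-Ab1 at 2.37 to 11.2 CPM and Cd74 at 7.29 to 33.9 CPM. Inside the third component (n = 27) H2-Ea-ps rose with H2-Eb1, r = 0.601 and rho = 0.640 (permutation, adjusted p = 0.00278 for r), and with Cd74, r = 0.630 and rho = 0.603 (permutation, adjusted p = 0.00155 for r). Without the 2 farthest libraries these were 0.530 and 0.491. Both pairs were added to the planned list, so their p-values are not those of planned tests. The gene most like H2-Ea-ps was Gm8909 (rho = 0.70), a predicted gene at chr17:36164443-36168537, whose median was 0 CPM in the 40 libraries of the first component, 0.583 CPM in the third component and 0.929 CPM in the fourth. BC051537 (rho = -0.46) and Zfp811 (rho = -0.45) followed.

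**Figure D3:**
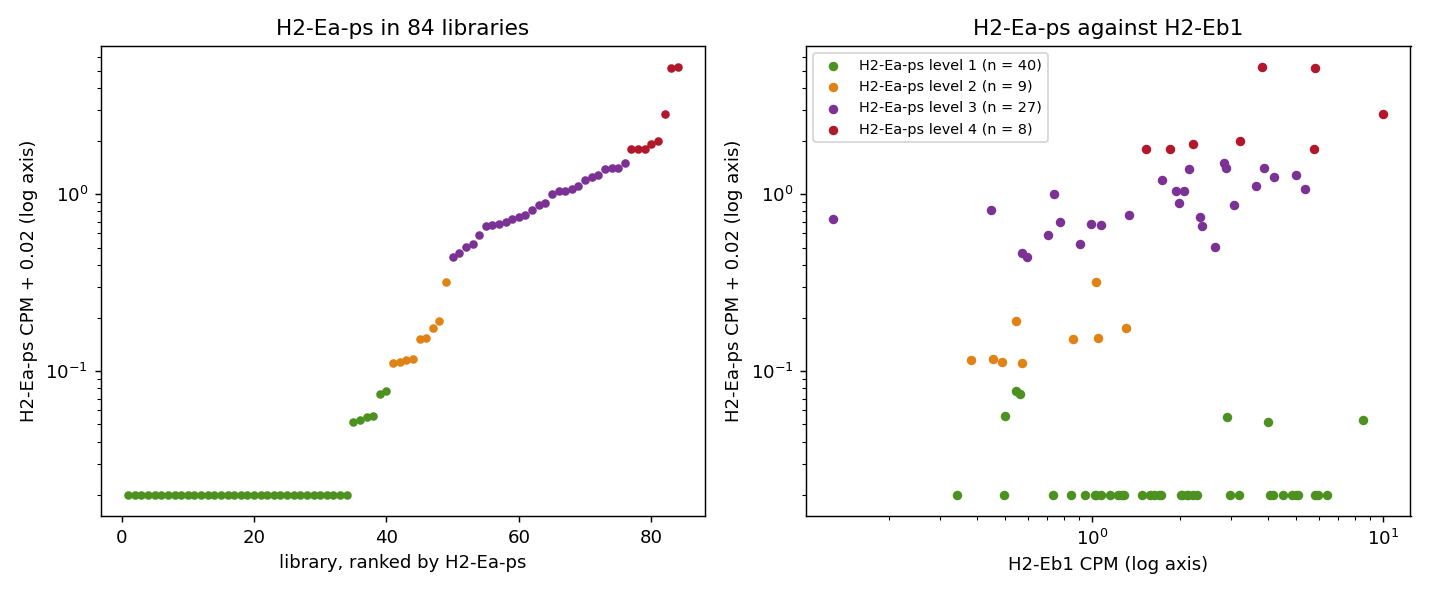
Left, H2-Ea-ps in CPM plus 0.02 (log axis) over the 84 libraries ranked by it; right, the same against H2-Eb1 in CPM (log axis), with each point 1 library and colours for the 4 components of H2-Ea-ps (n = 40, 9, 27 and 8). The 40 libraries with at most 2 counts of H2-Ea-ps span 0.342 to 8.49 CPM of H2-Eb1.

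H2-Ob, the beta chain of the DM inhibitor H2-O, was raised in 12 libraries, 0.973 to 2.49 CPM against at most 0.826 CPM in the other 72. Runs 1 to 4 of sheet numbers held 0, 4, 2 and 6 raised libraries and 18, 14, 15 and 25 others, so run may play a part, which was not tested. Of these 12 libraries, 11 were among the 35 with H2-Ea-ps in its 2 upper components, and 24 of the 35 had low H2-Ob. H2-Oa, its alpha chain, formed 1 component from 0.0583 to 1.10 CPM, and no other gene reached |rho| = 0.5 with H2-Ob. The genes most like H2-Ob were Senp8 (rho = 0.43), Stk19-ps1 (rho = -0.43) and Dnajc28 (rho = 0.41). H2-K1 was low in 14 libraries, 4.92 to 11.6 CPM, against 11.9 to 47.5 CPM in 70, with no empty gap between them. The 14 fell 2, 2, 3 and 7 in runs 1 to 4, the last being the largest run. Of the 14, 11 were also in the lower component of H2-Aa, and 10 were males. Its neighbour H2-K2 had a median of 0.192 CPM in the 14 and 0.447 CPM in the 70, and B2m 48.8 and 62.0 CPM. The genes most like H2-K1 were H2-K2 (rho = 0.77), H2-Q7 (rho = 0.65) and the interferon-induced Ifitm3 (rho = 0.63). H2-M6-ps, a pseudogene, had at most 17 counts in any library, and its 2 components, 20 libraries at 1 to 4 counts and 64 at 4 to 17, share a count of 4. The lower one held 16 females and 4 males, the upper one 27 and 37. The genes most like it were Snrpb (rho = 0.47), Ltk (rho = 0.43) and Vstm2a (rho = -0.42).

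The class II chains rose and fell together from animal to animal. H2-Ab1 and Cd74 correlated over the 84 libraries with r = 0.868 and rho = 0.879 (permutation, adjusted p = 4.86e-05, from the smallest p that 100000 permutations can give), and r was 0.895 in females, 0.842 in males and 0.837 to 0.915 in the 4 runs. H2-Eb1 and Cd74 gave r = 0.859 and rho = 0.876 (permutation, adjusted p = 4.86e-05), with 0.839 in females, 0.896 in males and 0.727 to 0.919 in the runs. Without the 2 farthest libraries r was 0.863 and 0.869. The lower component of H2-Aa held 7, 5, 3 and 15 libraries in runs 1 to 4. H2-Aa was taken within its components, which touch at 2.10 and 2.28 CPM. In the 54 libraries of the upper one it followed H2-Ab1 with r = 0.838 and rho = 0.834, Cd74 with r = 0.768 and rho = 0.755, and H2-Eb1 with r = 0.715 and rho = 0.724 (permutation, adjusted p = 4.86e-05 each for r). In the 30 libraries of the lower one r was 0.375, 0.347 and 0.333 (permutation, adjusted p = 0.0777, 0.0965 and 0.099) and rho was 0.539, 0.312 and 0.492 (permutation, adjusted p = 0.00835, 0.129 and 0.0165), where H2-Aa had 12 to 68 counts.

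Single animals broke the balance between the chains. The ratio of H2-Eb1 to H2-Aa in CPM had a median of 0.630 and lay between 0.376 and 1.01 from the 10th to the 90th percentile. It was 0.0755 in female 23 and 0.135 in female 4, and 0.234 in the next lowest animal. H2-Eb1 had only 4 counts in female 23 and 13 in female 4, beside 53 and 96 of H2-Aa. These 2 females were also the lowest in H2-D1, at 8.51 and 7.42 CPM, with the next animal at 14.7 CPM. The ratio of H2-Ab1 to H2-Aa, with a median of 0.713, was 7.96 in male 14 and 2.38 in the next animal, and 0.182 in male 28 and 0.343 in the next. Male 14 was also the lowest in H2-K1, at 4.92 CPM. H2-Bl was 8.32 CPM in male 35 and 2.70 CPM in the next animal, and male 35 was also the highest in H2-DMb1 (4.58 CPM), H2-K2 (1.70 CPM) and B2m (91.7 CPM). These animals were picked out after their values were seen.

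The peptide loader was set against the class II pathway in the same way. H2-DMa against Cd74 gave r = -0.224 and rho = -0.235 (n = 84, permutation, adjusted p = 0.0777, and 0.0606 to 0.0807 under the 4 alternatives). Adjusted over the 6 relations in all libraries in place of all 34, the alternatives gave 0.0426 to 0.0512 by the same permutation test, so the call depends on that choice. H2-DMa against H2-DMb1, its partner chain, gave r = -0.124 and rho = -0.120 (permutation, adjusted p = 0.306). H2-DMa ran from 10.2 to 38.9 CPM with a median of 18.5, and its most alike genes, Cdc25c (rho = 0.58), Bmper (rho = -0.58) and Plcb4 (rho = -0.58), lie on other chromosomes. H2-DMb1 ran from 0.347 to 4.58 CPM and H2-DMb2 from 0.0636 to 2.62 CPM; both are beta chains that share 22.65% and 21.19% of their 50-base words with each other. The pairing of H2-Aa with Ciita could not be computed because Ciita, with a median of 2 counts, was under the count rule.

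Among class I genes H2-D1 followed B2m with r = 0.586 and rho = 0.643 (n = 84, permutation, adjusted p = 4.86e-05), with 0.477 to 0.726 in the 4 runs. H2-D1 and Nlrc5 gave r = 0.267 and rho = 0.282 (permutation, adjusted p = 0.0333), and 0.221 (permutation, adjusted p = 0.0839) after sex and run were taken out. In the 70 libraries of the upper component of H2-K1, it followed B2m with r = 0.395 and rho = 0.348 (permutation, adjusted p = 0.00255 for r). Against H2-D1 it gave r = 0.222 and rho = 0.275 (permutation, adjusted p = 0.099 and 0.0399), and against Nlrc5 r = 0.219 and rho = 0.209 (permutation, adjusted p = 0.099 and 0.116). In the 14 libraries of the lower component none of these 3 pairs passed.

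The 351 pairs of members had a median rho of 0.162, with 37 pairs at 0.5 or above and 3 at -0.5 or below. H2-D1, H2-Q4, H2-Q6 and H2-Q7 made a block: H2-Q6 with H2-Q7 (rho = 0.78), H2-D1 with H2-Q6 (rho = 0.76), H2-Q4 with H2-Q6 (rho = 0.74) and H2-D1 with H2-Q4 (rho = 0.73). H2-Q7 encodes Qa-2, and these genes share 12.77% to 31.97% of their 50-base words with other genes. The other Q region members, H2-Q1, H2-Q2 and H2-Q10, had 0 members among their 10 most alike genes. The 15 pairs of Q region members had a median rho of 0.38, from 0.22 to 0.78. By distance, 8 of 24 pairs within 50 kb and 11 of 55 at 50 to 200 kb reached 0.5, beside 1 of 21 at 200 to 500 kb, 1 of 51 at 500 to 1000 kb, 14 of 148 at 1000 to 2000 kb and 2 of 52 beyond. Correlations between genes of these libraries share library and region, and no p is given.

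**Figure D4:**
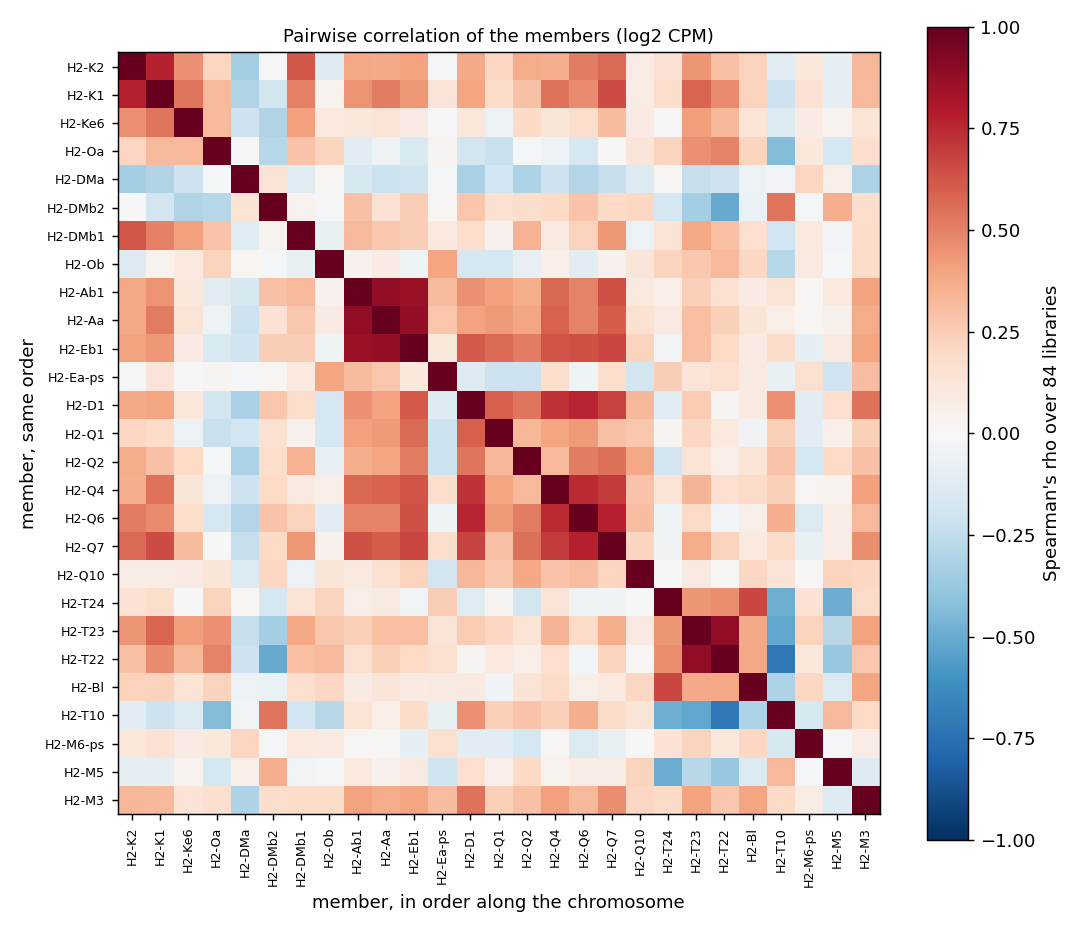
Spearman's rho of log2 CPM between all pairs of the 27 members over 84 libraries, in order along the chromosome, from -1 (blue) to 1 (red). The class II block of H2-Ab1, H2-Aa and H2-Eb1 reaches 0.88, and H2-T22 with H2-T10 stands at -0.71.

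When each member was set against all other kept genes, the 10 most alike included many from the same stretch of the chromosome. Of these 270 places, 93 (34.4%) were held by genes of the H2 interval, which holds 135 of the 17775 genes kept (0.759%). The first place went to a gene of the interval for 18 members, 14 times another member, and to a gene on another chromosome for 7 members. H2-Q1 was most like the transporter Slc6a12 (rho = 0.81), the collectin Colec12 (rho = 0.81) and osteomodulin Omd (rho = 0.79). H2-Q2 was most like the homeobox gene Otp (rho = 0.79), and Gpx3 reached rho = 0.78 with it. H2-Q4 had Ifitm3 (rho = 0.73) and the interferon-induced GTPase Gbp2 (rho = 0.71) beside H2-Q6 and H2-D1. H2-M3, which presents formylated peptides, ran against Dusp18 (rho = -0.82), Mamld1 (rho = -0.82) and Stim2 (rho = -0.81), and 1714 genes reached |rho| = 0.5 with it.

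Markers of other cells moved with several members. The 3 class II chains had a median rho of 0.46 to 0.50 with 8 border macrophage genes (such as Mrc1, Cd163 and Lyve1), whose summed level ran from 6.21 to 64.5 CPM, and of 0.52 to 0.57 with 7 leptomeningeal and fibroblast genes, at 29.1 to 372 CPM. With 15 microglia genes, at 427 to 893 CPM, it was 0.05 to 0.09. It was 0.27 to 0.31 with the 2 B cell genes kept and 0.21 to 0.25 with 6 endothelial genes. With the 4 dendritic cell genes kept it was 0.13 to 0.16, and with the 3 T cell genes kept 0.03 to 0.08. These values pool the components of H2-Aa. Over all genes kept the median rho of each chain was -0.01 and the 95th percentile 0.34 to 0.36. In the planned pairs, H2-Aa and Mrc1 gave r = 0.283 in the lower and 0.322 in the upper component of H2-Aa (permutation, adjusted p = 0.169 and 0.0377). After sex and run were taken out r was 0.0943 and 0.215. With the dendritic cell gene Flt3 r was 0.0879 and -0.0538, and with the microglia gene Aif1 -0.0168 and -0.083 (permutation, adjusted p = 0.602 to 0.929). H2-Q1 had a median rho of 0.77 with the leptomeningeal and 0.63 with the border macrophage genes. For H2-T22, H2-T10, H2-Ea-ps and H2-Ob the highest median rho over the border macrophage, leptomeningeal and microglia lists was 0.233, for H2-T22 and the leptomeningeal genes. Of the dendritic cell markers, Xcr1 had 0 counts in 63 libraries and Clec9a in 37, and of the B and T cell markers Ms4a1 had 0 counts in 50 and Cd3e in 39. Other genes of these lists were present in every library, among them Flt3 with a median of 4.26 CPM, Zbtb46 with 14.3 CPM and Cd4 with 4.94 CPM. In tissue of many cells, fewer cells of a type and less RNA per cell cannot be told apart, and the part of these cells in the results was not tested.

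The design sets gene expression against ethanol preference, for all animals together and for each sex, for the first week, the last week and the mean of 13 weeks. A slope gives the log2 change of a gene for 0.5 more preference, from edgeR's quasi-likelihood test, fitted on all 17775 genes, with Benjamini-Hochberg adjustment over all of them. For mean preference 0 of 27 members were called in all 84 animals, where 0% of all genes were, 0 in females (0.0113% of all genes) and 0 in males (0.00563%). At an unadjusted p under 0.05 there were 1, 3 and 3 members, against 4.34%, 7.29% and 1.87% of all genes. DESeq2 and limma-voom also called 0 members in each. For week 1, 0 members were called in all animals (0.045% of all genes), in females (0%) and in males (0.0563%), with 0, 4 and 3 at an unadjusted p under 0.05 (3.46%, 2.55% and 4.95% of all genes). For week 13 the counts were again 0 (0%, 0.0563% and 0.0169% of all genes), with 0, 0 and 2 unadjusted (6.42%, 9.19% and 3.89%).

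In all 84 animals the members' median slope on mean preference was -0.14, against -0.0006 over all genes. Of the members' slopes 11 were positive and 16 negative, beside 49.7% positive over all genes. H2-T10 had the smallest p, with a slope of -0.56 ± 0.27 (SE, 95% interval -1.10 to -0.01, unadjusted p = 0.0452, edgeR adjusted p = 0.9995) and an unadjusted p of 0.059 with run as a covariate. It was followed by H2-T22 at 0.74 ± 0.40 (-0.06 to 1.53, unadjusted p = 0.0688). H2-Ob at 0.48 ± 0.31, H2-Ke6 at 0.45 ± 0.37 and H2-D1 at -0.23 ± 0.20 came next. H2-K1 was at 0.17 ± 0.22. The slope was -0.41 ± 0.39 for H2-Aa (-1.18 to 0.36), -0.28 ± 0.38 for H2-Ab1 (-1.02 to 0.47) and -0.35 ± 0.38 for H2-Eb1 (-1.11 to 0.41). H2-Ea-ps had -0.20 ± 0.76, an interval of -1.70 to 1.31 that allows a wide change in either direction. The median SE of the members was 0.312, against 0.119 over all genes.

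In females the smallest p-values were those of H2-Ke6 (1.08 ± 0.41), H2-DMb1 (0.55 ± 0.25) and H2-T22 (1.20 ± 0.57). There 20 of 27 slopes were positive, against 51.38% of all genes. In males the smallest p-values were those of H2-Eb1 (-1.66 ± 0.55, 95% interval -2.78 to -0.55), H2-DMb1 (-0.98 ± 0.38) and H2-Ob (0.90 ± 0.41). There 21 of 27 slopes were negative and 6 positive, against 49.74% of all genes positive. Many members correlate with one another, so these are not 27 independent slopes. H2-Aa and H2-Ab1 were at -1.06 ± 0.54 and -0.93 ± 0.59 in males and at 0.03 ± 0.52 and 0.10 ± 0.48 in females. In week 1 H2-DMb1 was again opposite, 0.85 ± 0.25 in females and -0.92 ± 0.32 in males, and H2-K2 was at 1.24 ± 0.42 in females. In week 13 H2-Ab1 and H2-Eb1 were at -1.04 ± 0.44 and -1.03 ± 0.42 in males. The lowest edgeR adjusted p of any member in these fits was 0.466, for H2-Ke6 in females. H2-Ke6 had at most 14 counts in any library and 10 or more in only 8. It shares 70.51% of its 50-base words with Gm20427, so reads of the 2 genes may not be told apart. In males all 8 border macrophage genes had negative slopes, with a median of -0.83, as had 6 of 7 leptomeningeal genes, with a median of -0.95, and their part in the class II slopes was not tested. In females all 7 choroid plexus genes had positive slopes, with a median of 2.46, and 6 of 7 central amygdala genes negative ones, with a median of -0.58; their part in the members' slopes was not tested. Without the 5 libraries highest in choroid plexus genes 0 members were called in any of the 11 comparisons, where 0 to 19 of 17775 genes were. The fits with all libraries also called 0 members, so this count cannot show what part the choroid plexus had.

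**Figure D5:**
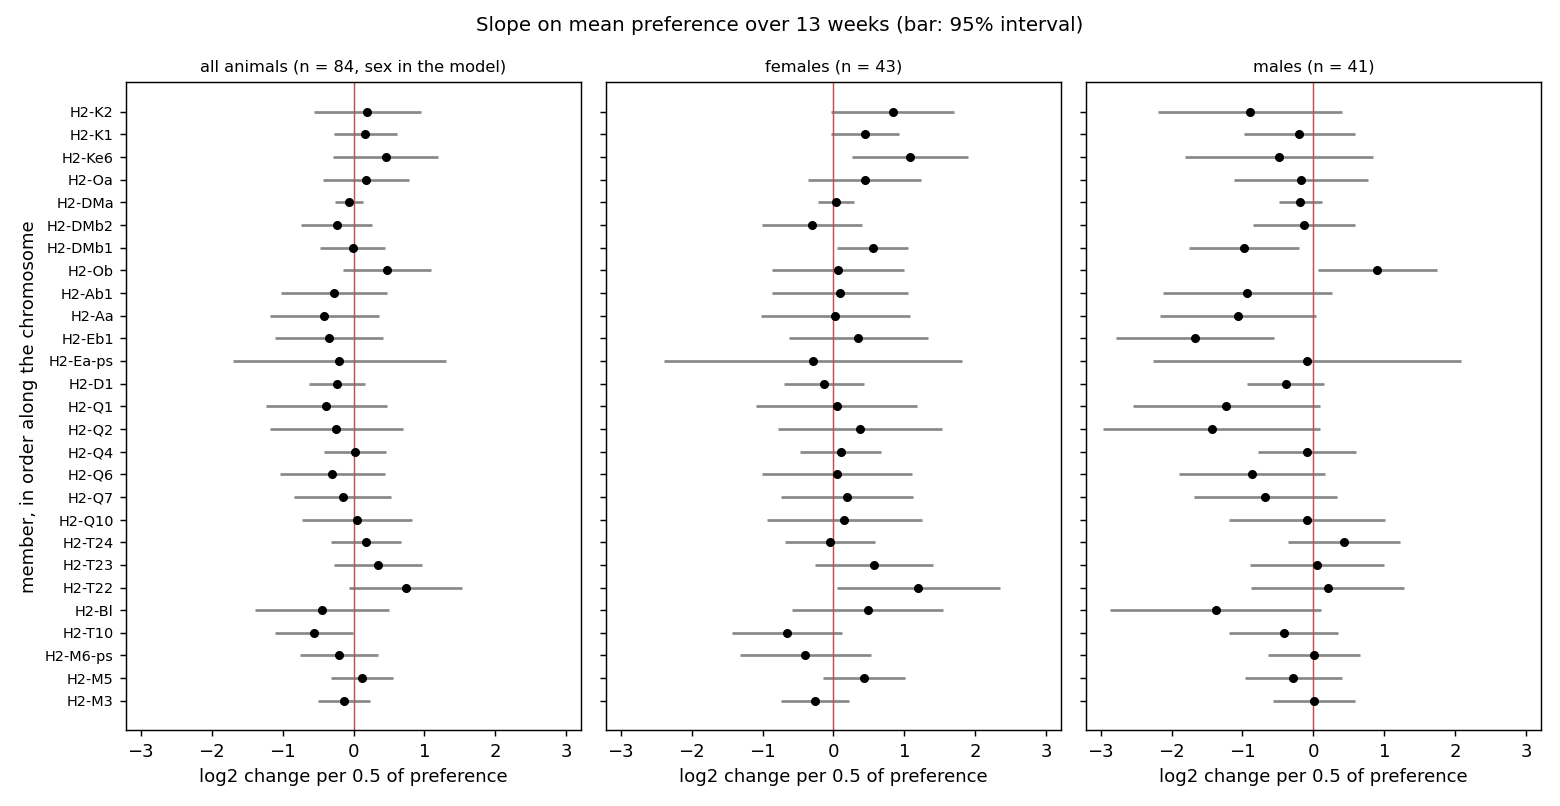
Slope of each member on mean preference (log2 change per 0.5 of preference, edgeR) with its 95% interval, in all 84 animals, in 43 females and in 41 males, in order along the chromosome. The intervals of H2-Eb1 and H2-DMb1 lie below 0 and that of H2-Ob above 0 in males, and those of H2-Ke6, H2-DMb1 and H2-T22 above 0 in females, before adjustment over all genes.

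The difference between the sexes in slope was tested itself. For sex by mean preference 0 members were called, against 0.0169% of all genes, and 5 had an unadjusted p under 0.05, against 3.38%. They were H2-DMb1 (-1.53 ± 0.45, males minus females, unadjusted p = 0.000993), H2-Eb1 (-2.01 ± 0.76), H2-K2 (-1.72 ± 0.77), H2-Bl (-1.85 ± 0.90) and H2-Ke6 (-1.56 ± 0.75), each with an edgeR adjusted p of 0.9996. For sex alone 0 members were called, against 0.107% of all genes, and 1 had an unadjusted p under 0.05, against 4.04%: H2-Q6, at -0.58 ± 0.24 in males against females, with medians of 0.463 and 0.680 CPM.

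Of the partners of the pathway, none was called for mean preference in all animals either. Among 15 class I partners 8 slopes were positive and 7 negative; the smallest p-values were those of the transporter subunit Tap1 (0.34 ± 0.16), the chaperone Canx (-0.07 ± 0.04) and Nlrc5 (0.37 ± 0.26). Among 7 of 8 class II partners, the eighth being Ciita, 1 was positive and 6 negative, with the protease Ctss (-0.23 ± 0.11), the regulatory subunit Rfxank (-0.09 ± 0.07) and Cd74 (-0.34 ± 0.35) first. Among 17 interferon genes 8 were positive and 9 negative, with Ifit1 (-0.56 ± 0.28), Bst2 (0.56 ± 0.28) and Ifi27 (0.31 ± 0.22) first. The medians of the 3 lists were 0.0023, -0.08 and -0.03, beside -0.0006 over all genes. Taken by sex, the 17 interferon genes had 15 positive and 2 negative slopes in females, with a median of 0.23. In males they had 4 positive and 13 negative slopes, with a median of -0.21. In each sex 0 of them were called.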

How the data were processed

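RNA from the dissected central nucleus of the amygdala of 84 HS-CC mice was sequenced, 1 library per animal. The deposited values are counts of reads per gene, not normalized, per the labels. The submitters' processing notes name STAR, featureCounts of Subread 1.6.0, FastQC and DESeq2, and the build GRCm38 (mm10). Libraries were stranded, per the labels' protocols; the strand setting of the counting, its treatment of reads that match several genes and its annotation release are not stated in the labels. Reads were matched to a reference of 1 strain, and how that affects alleles of other founder strains was not tested. Left unused were 5 columns without values and 3 that hold undetermined reads. Gene positions are those of the table.

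Genes with at least 10 counts in at least 8 libraries were kept (17775). Counts were scaled by TMM and fitted with edgeR 4.0.16 (robust quasi-likelihood test, R 4.3.3), with sex as a term where both sexes entered, and a gene was called at a Benjamini-Hochberg adjusted p under 0.05. SE is the size of the slope over the square root of F. Alternatives used DESeq2 1.42.0, limma 3.58.1 (voom), other scalings, filters and exposures. CPM uses TMM-scaled totals, and log2 CPM a prior count of 2. Levels came from mclust 6.1.1, chosen by BIC. Pair correlations used 100000 permutations, two-sided, adjusted over 34 relations. The pairs of H2-T22 with H2-T10 and H2-T23, and of H2-Ea-ps with H2-Eb1 and Cd74, were added to the planned pairs. Sheet numbers in the sample titles form 4 ascending runs (9, 9, 10 and 15 females; 9, 9, 7 and 16 males), taken as possible batches. Shared words were counted over 50 bases of GENCODE M21 transcripts. No 2 libraries agreed within sampling noise: the closest pair had a chi-square of 17.37 per gene. The fits and the level rule were also run on simulated data. The planted slopes and levels there were in better counted genes with 1 fixed spread. That run therefore does not show how the fits and the rule perform on scarce or widely spread members.

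The members, lists and pairs were chosen with earlier results of these data known. Named in full were members with several levels or an on/off pattern, classical members and the 5 smallest p-values for mean preference; the 3 genes most like each of the former; and the 3 smallest p-values of each partner list. Animals were never grouped by a measured gene to compare their drinking. Library totals were 24118965 to 42036566 counts, so members under 1 CPM rest on few counts. Results on some genes of these lists and likeness rankings are not reported here.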

Additional observations from a re-analysis of the deposited data

How the results depend on the processing

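In 106 alternative fits of the 11 comparisons with drinking and sex (another scaling, 2 other count filters, DESeq2, limma-voom, run as a covariate, ethanol intake or rank in place of preference, and 2 fits without libraries that stand apart, chosen after seeing the data) 0 members were called, as in the fits reported. Over all genes these fits called from 0 to 698 genes, the most with ethanol intake for week 13 in females (698 of 17775). Ethanol intake also called 231 for the mean in females and 101 for week 13 in all animals. DESeq2 called 219 for week 13 in females. The fits reported called at most 10 genes for drinking and 19 for sex. The libraries left out were the 5 highest in choroid plexus genes (females 17 and 38, males 17, 33 and 38) and the 1 highest in Npw. No paired analysis was possible because each animal gave 1 library. The labels carry no replicate numbers, and those used here, such as female 17, count the animals of each sex in sample order. Of 273 values of the named slopes under these alternatives, 271 had the sign reported; the other 2 were those of H2-Ea-ps on mean preference, at 0.82 with limma-voom and 0.04 with run as a covariate. On/off members fell from 3 to 1, H2-Ea-ps, both with 0 and at least 10 counts and with at most 0.1 and at least 1 CPM as thresholds. That was 3.7% of members, near the 3.07% and 2.13% of all genes that were on/off under these thresholds. Members with several levels fell from 7 to 3 (H2-Aa, H2-Ea-ps and H2-T22) when centres had to lie 2 log2 units apart. That was 11.1% of members, beside 4.64% of all genes. Members with several levels numbered 7 or 8 under the other 3 settings, beside 8.29% to 10.4% of all genes. The count of relations that passed over all libraries and the share of alike genes in the H2 interval moved by less than 1.5 times; the latter was 105 of 270 places after sex and run were taken out. For H2-Ea-ps, H2-K2, H2-Q10, H2-Ke6 and H2-M6-ps depth limits what can be seen, since many libraries held fewer than 10 counts.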
